A study of Mus musculus with 12 samples.

Results

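Phosphatidylcholine is the main phospholipid of bile, and Abcb4 is the canalicular transporter of the hepatocyte that moves it across the membrane into the bile, where it shields the bile duct lining from bile salts. The liver makes phosphatidylcholine from choline through choline kinase, CTP:phosphocholine cytidylyl transferase and cholinephosphotransferase, and, as a route prominent in hepatocytes, by methylating phosphatidylethanolamine with Pemt. Mice without Abcb4 secrete bile nearly devoid of phospholipid and develop a sclerosing cholangitis.

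The genes described here are Abcb4 and the genes of phosphatidylcholine synthesis and transfer: Pemt, the choline kinases Chka and Chkb, the cytidylyl transferases Pcyt1a and Pcyt1b, the phosphotransferases Chpt1 and Cept1, and Pctp, the phosphatidylcholine transfer protein. They were taken by name from the array's own annotation, which gave these 9 of 27962 names and 20 of 41174 gene probes, and 17 of those probes, covering 8 genes, were bright enough to test. The question put to them is whether the phospholipid synthesis genes follow the loss of the exporter.

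Whole liver RNA was hybridised to 12 two-colour 60-base oligonucleotide arrays, each carrying RNA of an Abcb4 (-/-) liver in one dye and of an Abcb4 (+/+) wild type liver in the other. The 6 CA arrays held knockouts fed cholic acid, given to raise disease activity, and the 6 UDCA arrays held knockouts fed ursodeoxycholic acid, given to lower it, both for 9 weeks. Each diet group had 5 livers, none pooled, and 1 liver in each was hybridised again with the dyes swapped, so in each group 2 of the 6 arrays are not independent and p-values come out a little low. Doses, strain, sex, age, the allele and the diet of the wild type mice are not stated by the labels, and every comparison is therefore of a fed knockout with wild type, which joins genotype and diet. Knockout RNA carried Cy5 on arrays 1 to 3 and Cy3 on arrays 4 to 6 of each group.

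A value for an array below is the log2 ratio of knockout over wild type signal, so 0 means equal signal and -1 a halving in the knockout liver. Estimates are the limma mean over arrays with the dye as a term, ± the standard error (6 arrays each), and a gene was called where the Benjamini-Hochberg adjusted p over all 21688 tested probes was below 0.05. Between 31.6% and 68.4% of gene probes were well above background in a channel, and 1.27% to 5.97% of spots were saturated. CA arrays 3 and 4, which share a slide, stood apart from the other 10 in 3 pancreatic enzyme genes, whose median ratio was -3.34 and -3.35 there and between -0.54 and 0.52 elsewhere, so member results that change without these arrays are given both ways.

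Marker transcripts of cholangiocytes and of stellate cells and fibroblasts rose in both comparisons. Of all 14952 gene names, 38% were called higher and 22.5% lower with CA, and 17.6% higher and 8.70% lower with UDCA. All 7 measured cholangiocyte markers were called higher in CA-fed and 6 of 7 in UDCA-fed knockout liver. Median ratios per array were 2.40 to 3.70 on CA and 0.85 to 2.61 on UDCA arrays. UDCA array 6, the only array on slide 5, gave the 2.61, and the other UDCA arrays reached at most 1.38. The stellate cell and fibroblast list was higher for 8 of 8 genes with CA and 7 of 8 with UDCA. Hepatocyte markers were lower for 2 of 8 genes with CA (Tdo2 -1.17 and Ttr -0.49) and 1 of 8 with UDCA (Ttr -0.65), at list medians of -0.44 and -0.25. Per array, the hepatocyte median was 1.21 on UDCA array 6, against -0.91 to 0.33 on the other UDCA arrays and -0.85 to -0.08 on CA arrays. Macrophage markers divided 4 higher and 4 lower with CA, and 4 higher and 1 lower with UDCA. The T, B and NK cell list (4 genes measured) had 3 higher and 1 lower with CA and 1 higher with UDCA. The endothelial list (6 genes) had 1 higher and 2 lower with CA and 1 lower with UDCA. In lists this small, the numbers of hepatocyte and endothelial genes called lower lie near the shares for all names. In bulk liver, fewer cells of a type and less RNA per cell cannot be told apart, and the part of these shifts in the results below was not tested.

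The sequences shown here are of both Abcb4 probes and of probes of synthesis genes, as the scanner files give them, 5′ to 3′, with their mm7 positions. The first and second read Abcb4 at places 18152 bases apart on the plus strand of chromosome 5 (chr5:8996752-8996811 and chr5:8978600-8978659), because they gave different values for its loss. The Chpt1 probe (chr10:88046254-88046313, minus strand) read the synthesis gene that fell most. The Pemt (chr11:60055705-60058423, minus strand), Pcyt1a (chr16:32141707-32144596, plus strand), Chkb (chr15:89509515-89509723, minus strand) and Pctp (chr11:90093761-90095156, minus strand) probes match stretches of genome longer than their 60 bases, so each crosses an intron and reads spliced RNA. The Pcyt1a probe shown is not the brighter one of that gene.
Abcb4 probe A_51_P249118: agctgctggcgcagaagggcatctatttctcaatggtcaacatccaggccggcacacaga
Abcb4 probe A_52_P223194: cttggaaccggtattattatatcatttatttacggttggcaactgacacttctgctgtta
Chpt1 probe A_52_P655803: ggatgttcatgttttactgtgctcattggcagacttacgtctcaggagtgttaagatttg
Pemt probe A_51_P352057: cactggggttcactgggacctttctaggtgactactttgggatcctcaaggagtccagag
Pcyt1a probe A_51_P294705: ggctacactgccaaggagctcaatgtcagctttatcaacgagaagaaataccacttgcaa
Chkb probe A_52_P35304: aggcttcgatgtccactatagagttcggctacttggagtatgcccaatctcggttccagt
Pctp probe A_51_P113475: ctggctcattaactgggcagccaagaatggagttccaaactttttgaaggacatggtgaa

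Abcb4 itself, the deleted gene, was lower in knockout liver at both of its probes and under both diets. At A_52_P223194 the ratios ran from -3.73 on CA array 4 to -2.07 on CA array 6 with a median of -2.57, and from -2.77 on UDCA array 6 to -1.20 on UDCA array 5 with a median of -1.69. Every one of the 12 arrays was below 0, and the diet groups overlapped. The estimates were -2.73 ± 0.21 with CA, a 6.62-fold lower signal (adjusted p = 4.25e-08), and -1.77 ± 0.21 with UDCA, 3.42-fold lower (adjusted p = 1.78e-05). With the scanner software's processed signals the loss was larger, -3.86 with CA and -3.15 with UDCA. This probe was well above background in the knockout RNA of 5 of 6 UDCA arrays, so a signal remained in knockout liver. The sources used here do not say which stretch of Abcb4 was removed, so a remaining signal bears on neither the labels nor the deletion.

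The brighter Abcb4 probe, A_51_P249118, was often at the scanner ceiling, so its ratios only loosely measure the size of the loss. They ran from -1.46 on CA array 5 to 0.11 on CA array 1 (median -0.73), and from -1.90 on UDCA array 3 to 0.35 on UDCA array 2 (median -1.58). In each diet group 5 of 6 arrays were below 0 and the remaining array was above it. The estimates were -0.78 ± 0.20 with CA (adjusted p = 0.00376) and -1.26 ± 0.20 with UDCA (adjusted p = 0.000300). Its Cy3 channel was saturated on 4 CA and 3 UDCA arrays, and it was the brighter channel on every array but UDCA array 6, whichever genotype it held. With saturated values left missing, the estimates were -1.48 (adjusted p = 0.000500) with CA and -1.87 (adjusted p = 2.38e-05) with UDCA, and with the scanner software's processed signals the CA estimate was -0.45 (adjusted p = 0.122).

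**Figure D1:**
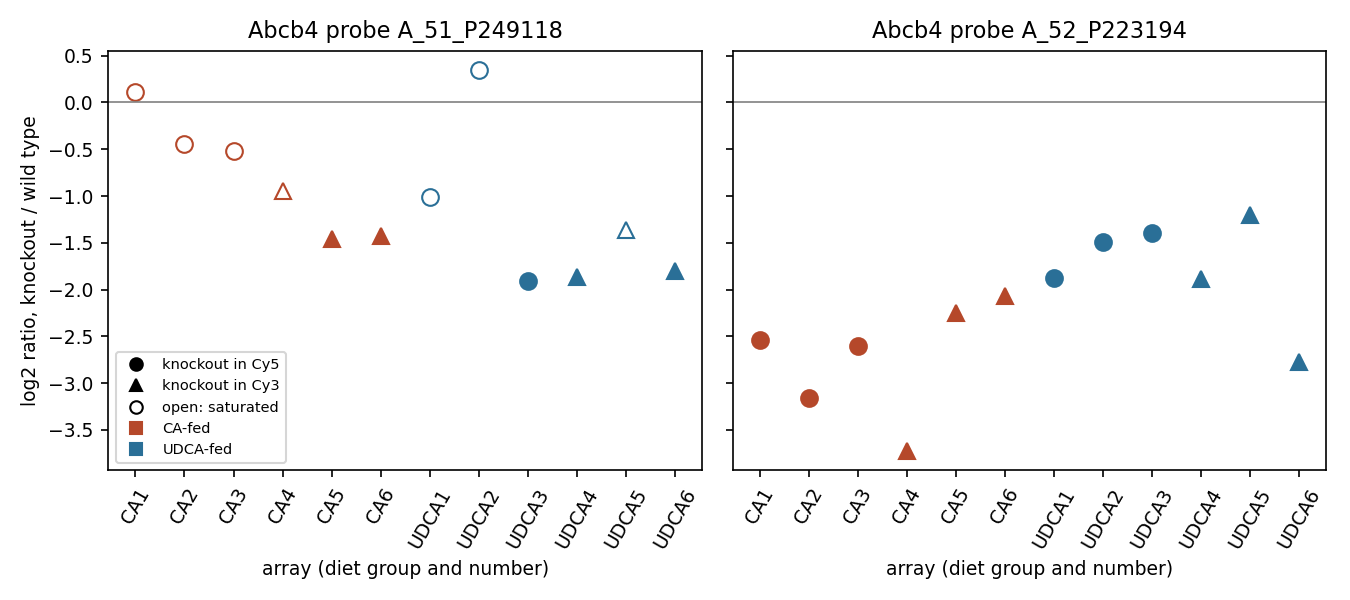
Ratio of knockout over wild type signal (log2) on each array for the 2 Abcb4 probes, CA-fed left of UDCA-fed, with points marked by the dye of the knockout RNA and by saturation. At A_52_P223194 every array lies below 0, from -3.73 to -1.20, while at A_51_P249118 CA array 1 (0.11) and UDCA array 2 (0.35) lie above it.

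Between the diets, CA-fed minus UDCA-fed was -0.95 (95% interval -1.59 to -0.32, adjusted p = 0.0270) at A_52_P223194 and 0.48 (-0.13 to 1.09, adjusted p = 0.228) at A_51_P249118. The first lost its call when the slide was a fixed block (-0.25, adjusted p = 0.720) or a random block (-0.78, adjusted p = 0.0599) and without CA arrays 3 and 4 (-0.74, adjusted p = 0.0902). It also lost it without CA array 2 or 4 or UDCA array 2, 3 or 5 alone, at values of -0.91 to -0.75. Within the slides that held both diets the difference was -0.43 on slide 3 and -0.53 on slide 4. Slide 3 held 1 CA and 2 UDCA arrays, and slide 4 held 1 CA and 3 UDCA arrays. Each within-slide difference, here and below, therefore rests on 1 CA array and is taken with the dye effect removed. Slides 1 and 2 held CA arrays only, and slide 5 held a UDCA array only. The difference at A_51_P249118 gained a call without UDCA array 2 (0.74, adjusted p = 0.0318). Saturation of A_51_P249118 leaves its size, and so its difference between the diets, poorly measured, and the diet difference in Abcb4 rests on the other probe. At that probe, A_52_P223194, the normalised log2 level differed by -0.32 in knockout RNA and by 0.64 in wild type RNA, CA minus UDCA arrays. The difference in ratio therefore comes in part from the wild type signal.

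Counting each gene by its brightest tested probe, 6 of the 8 measured genes were called in CA-fed knockout against wild type liver, 1 higher (Chka) and 5 lower (Abcb4, Pemt, Chkb, Pcyt1a and Chpt1), where 60.5% of all 14952 gene names were called in either direction. In UDCA-fed knockout liver 4 of 8 were called, 3 higher (Chka, Cept1 and Pctp) and 1 lower (Abcb4), against 26.4% of all names. Between the diets 5 of 8 were called, all lower with CA (Chkb, Pcyt1a, Chpt1, Cept1 and Pctp), against 27.9%. The median estimate over the 8 genes was -0.51 with CA, 0.10 with UDCA and -0.51 for CA-fed minus UDCA-fed, where the medians over all gene names were 0.10, 0.04 and 0.07. The CA share lies near its background, and Abcb4 is the deleted gene.

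The counts depend on scaling. Median centring of the arrays, used instead of the loess correction, moved the median of all probes to 0.23 with CA and 0.29 with UDCA. Under it 2 of 8 genes were called with CA (Chka and Chpt1), 2 with UDCA (Chka and Pctp) and 1 between the diets (Pctp). Relative to that shifted median, Abcb4 at A_52_P223194 stood at -2.85 with CA. Chpt1 stood at -1.83 with CA and -0.20 with UDCA, Chka at 1.40 in both, and Pcyt1a at -0.86 and 0.28. Among member probes called with CA, Chkb A_52_P35304 alone changed sign under that scaling (0.00540), and it stood at -0.22 relative to the median.

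**Figure D2:**
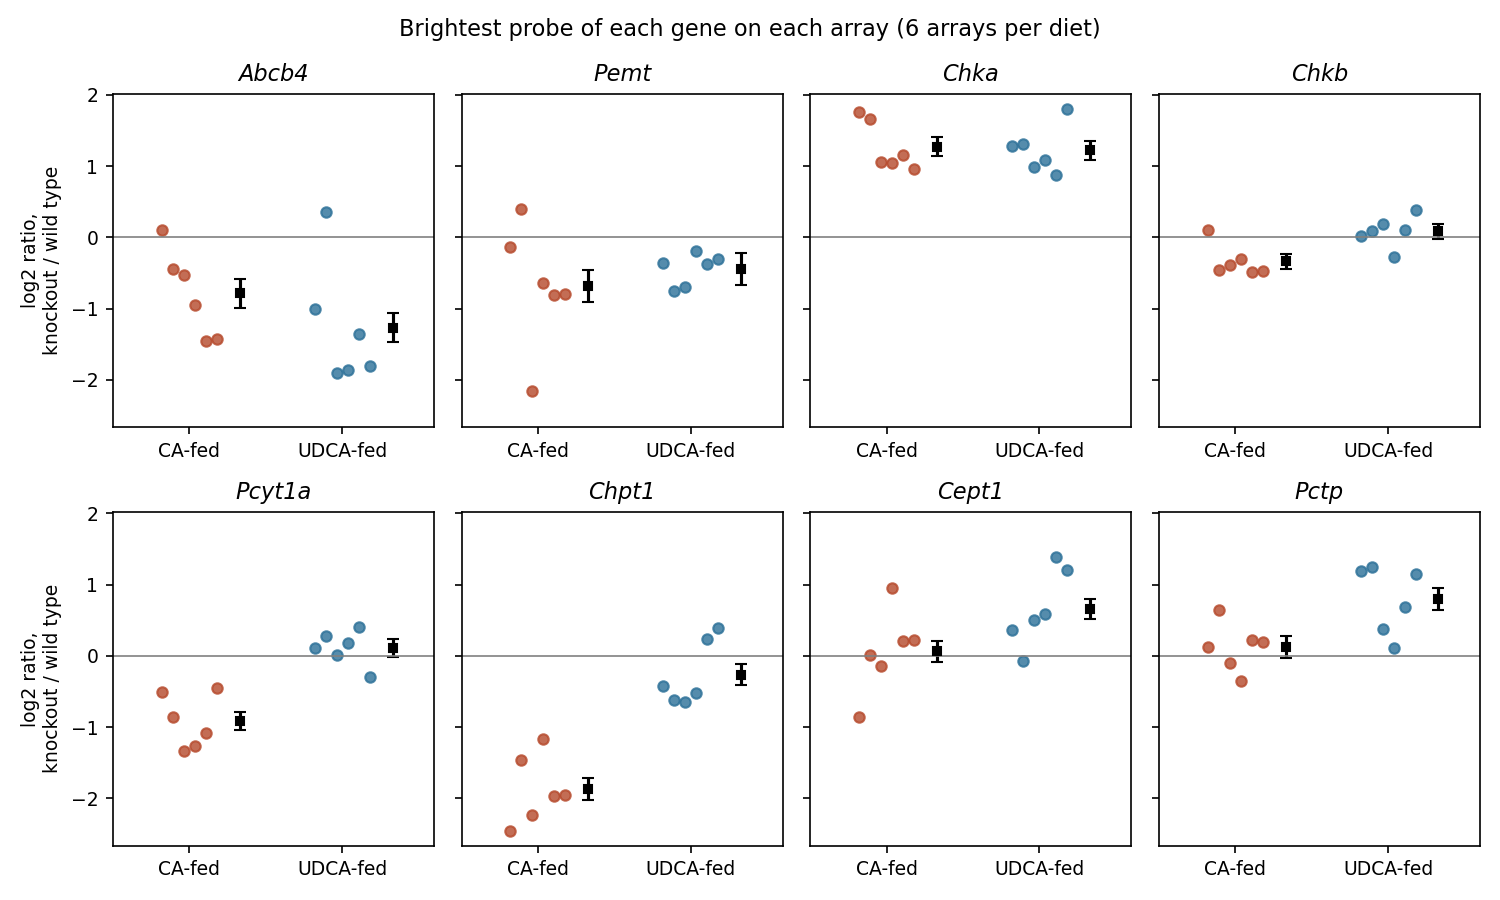
Ratio of knockout over wild type signal (log2) of the brightest tested probe of each of the 8 measured genes on each array, CA-fed left of UDCA-fed. Black squares with bars give the estimate and its standard error for each diet. Chka lies above 0 on every array (0.87 to 1.80), and for Chpt1 the CA arrays (-2.45 to -1.16) lie wholly below the UDCA arrays (-0.64 to 0.39).

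Pemt makes phosphatidylcholine from phosphatidylethanolamine with methyl groups from S-adenosylmethionine. Its intron-crossing probe A_51_P352057 ranged from -2.15 on CA array 3 to 0.40 on CA array 2 (median -0.72), and from -0.76 on UDCA array 2 to -0.19 on UDCA array 4 (median -0.36). With CA, array 3 was far below the rest and array 2 above 0, while all UDCA arrays lay in a narrow span below 0. Pemt was called lower with CA (-0.69 ± 0.22, adjusted p = 0.0147) and was not called with UDCA (-0.45 ± 0.22, adjusted p = 0.170). The second probe, A_51_P193093, gave -0.74 (adjusted p = 0.00559) and -0.45 (adjusted p = 0.128), below 0 on all 12 arrays.

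The Pemt probes were saturated on 2 (A_51_P352057) and 3 (A_51_P193093) CA arrays, and A_51_P352057 also on 1 UDCA array. With saturated values missing, A_51_P352057 gave -1.29 (adjusted p = 1.36e-05) with CA. Without CA array 3 its CA estimate was -0.37 (adjusted p = 0.0595) and the UDCA estimate of -0.45 passed (adjusted p = 0.0353). Without CA arrays 3 and 4 it was -0.33 (adjusted p = 0.137) with CA, and UDCA passed (adjusted p = 0.0406), while A_51_P193093 kept its CA call (-0.53, adjusted p = 0.0206). With each diet fitted alone, both probes passed with UDCA (adjusted p = 0.00677 at A_51_P352057 and 0.0102 at A_51_P193093).

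For the Pemt diet difference the settings did not agree. At A_51_P352057, CA-fed minus UDCA-fed was -0.24 (95% interval -0.91 to 0.43, adjusted p = 0.605), an interval that includes differences of either sign. With saturated values missing it was -0.90 (adjusted p = 0.00685), and with the deposited values -0.75 (adjusted p = 0.00703). A_51_P193093 gave -0.29 (adjusted p = 0.488), but -1.16 (adjusted p = 0.0333) with the slide as a fixed block and -0.66 (adjusted p = 0.0128) with the deposited values. Within slides 3 and 4 the differences were -0.34 and -0.41 at A_51_P352057, and -0.62 and -0.61 at A_51_P193093.

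Chka, the choline kinase that starts the choline route, was the one gene of the set called higher in both fed knockouts. Probe A_51_P142923 (chr19:3788621-3788680, plus strand) ranged from 0.96 on CA array 6 to 1.76 on CA array 1 (median 1.10), and from 0.87 on UDCA array 5 to 1.80 on UDCA array 6 (median 1.18). All 12 arrays were above 0 and the groups covered almost the same span. The estimates were 1.27 ± 0.13 with CA, a 2.41-fold higher signal (adjusted p = 1.00e-06), and 1.22 ± 0.13 with UDCA, 2.33-fold higher (adjusted p = 7.66e-06). Their difference was 0.05 (95% interval -0.35 to 0.45, adjusted p = 0.874).

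The other 3 Chka probes rose with CA by less. A_52_P420045 gave 0.70 (adjusted p = 0.00179), A_52_P61903 gave 0.76 (adjusted p = 0.000753) and A_52_P329367 gave 0.34 (adjusted p = 0.0149). With UDCA they gave 0.44 (adjusted p = 0.0617), 0.37 (adjusted p = 0.111) and 0.26 (adjusted p = 0.109), none of which passed. These are dim probes, and A_52_P329367 was not well above background in the wild type RNA of any UDCA array. It was well above background in the knockout RNA of only 2 UDCA arrays. With both signals mostly near background, its UDCA ratio sets neither the size of a rise nor a lower bound on it. The CA call of A_52_P329367 was lost without CA arrays 3 and 4 (0.32, adjusted p = 0.0642). The UDCA call of Chka held at its brightest probe alone in this fit. A_52_P420045 gained it with the scanner software's processed signals (0.997, adjusted p = 0.00174), the deposited values (0.51, adjusted p = 0.0126), median centring (0.74, adjusted p = 0.0359), the slide as a random block (0.55, adjusted p = 0.0317) and without UDCA array 3 (0.54, adjusted p = 0.0453). A_52_P329367 gained it with processed signals (1.06, adjusted p = 0.000289).

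Chkb, the second choline kinase, was slightly lower with CA. Probe A_52_P35304 ranged from -0.49 on CA array 5 to 0.10 on CA array 1 (median -0.42), and from -0.28 on UDCA array 4 to 0.39 on UDCA array 6 (median 0.09). In CA-fed liver array 1 stood apart above 0 from 5 arrays below it, and the UDCA arrays lay on both sides of 0. The estimates were -0.34 ± 0.10 (adjusted p = 0.0121) with CA and 0.09 (adjusted p = 0.615) with UDCA, and probe A_51_P159771 gave -0.55 (adjusted p = 0.00109) and -0.00 (adjusted p = 0.984). CA-fed minus UDCA-fed was -0.42 (95% interval -0.74 to -0.11, adjusted p = 0.0468) and -0.54 (adjusted p = 0.0278) at the 2 probes, and it was -0.44 within slide 3 and -0.44 within slide 4 at A_52_P35304. That call is marginal: it was lost under 17 of 24 alternatives, 10 of which left out a single array, and the A_51_P159771 call under 11 of 24. Without CA arrays 3 and 4 the values were -0.42 (adjusted p = 0.0905) and -0.39 (adjusted p = 0.117).

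Pcyt1a encodes the cytidylyl transferase that is the regulated step of the choline route. Probe A_52_P308881 (chr16:32149104-32149163, plus strand) ranged from -1.33 on CA array 3 to -0.45 on CA array 6 (median -0.97), and from -0.30 on UDCA array 6 to 0.40 on UDCA array 5 (median 0.14). Every CA array was below every UDCA array. Pcyt1a fell with CA by 0.92 ± 0.13 on the log2 scale, 1.89-fold lower (adjusted p = 2.48e-05), and stood at 0.11 with UDCA (adjusted p = 0.597). The intron-crossing probe A_51_P294705 gave -0.71 (adjusted p = 0.000210) with CA and -0.06 (adjusted p = 0.805) with UDCA.

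The diet difference in Pcyt1a was -1.03 (95% interval -1.42 to -0.63, adjusted p = 0.00108) at A_52_P308881 and -0.65 (adjusted p = 0.0148) at A_51_P294705. The first was -0.84 (adjusted p = 0.00608) without CA arrays 3 and 4 and -0.98 (adjusted p = 0.0305) with the slide as a fixed block, while the second lost its call in both (-0.49, adjusted p = 0.0689, and -0.43, adjusted p = 0.307). Within slides it was -1.24 on slide 3 and -0.63 on slide 4 at A_52_P308881. Pcyt1b, the isoform best known from brain and gonads, could not be measured: its 3 probes were well above background on too few arrays to be kept.

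Chpt1, the cholinephosphotransferase that joins CDP-choline to diacylglycerol in the last step, fell the most of the synthesis genes with CA. Probe A_52_P655803 ranged from -2.45 on CA array 1 to -1.16 on CA array 4 (median -1.96), and from -0.64 on UDCA array 3 to 0.39 on UDCA array 6 (median -0.47). All CA arrays were below all UDCA arrays, which lay on both sides of 0. The estimates were -1.87 ± 0.15 with CA, 3.65-fold lower (adjusted p = 7.13e-08), and -0.26 with UDCA (adjusted p = 0.236, 4 of 6 arrays below 0).

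CA-fed minus UDCA-fed for Chpt1 was -1.60 (95% interval -2.06 to -1.15, adjusted p = 0.000134), a 3.04-fold lower ratio. The other 2 probes, at chr10:88033091-88033150 and chr10:88031949-88032008, gave -1.48 (A_51_P240857, adjusted p = 4.11e-05) and -1.24 (A_52_P78770, adjusted p = 0.000105), and at no probe did the diets overlap. Within slides it was -1.91 on slide 3 and -1.80 on slide 4 at A_52_P655803. Without CA arrays 3 and 4 the difference was -1.69 (adjusted p = 0.000533), and with the slide as a fixed block it was -1.99 (adjusted p = 0.00282).

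Cept1, a phosphotransferase that accepts both CDP-choline and CDP-ethanolamine, was higher with UDCA. Its single probe A_51_P313460 (chr3:106321871-106321930, minus strand) ranged from -0.86 on CA array 1 to 0.96 on CA array 4 (median 0.11), and from -0.08 on UDCA array 2 to 1.38 on UDCA array 5 (median 0.54). The CA arrays were spread about 0, and 5 of 6 UDCA arrays were above it. Cept1 was called higher with UDCA (0.66 ± 0.14, 1.58-fold, adjusted p = 0.00352) and not with CA (0.06, adjusted p = 0.717). The probe had a dye effect of -0.40 (adjusted p = 0.0188), so its arrays differ by labelling as well. The diet difference was -0.59 (95% interval -1.03 to -0.16, adjusted p = 0.0427), -0.73 within slide 3 and -0.86 within slide 4.

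Pctp, the cytosolic carrier of phosphatidylcholine between membranes, had a like pattern. Probe A_51_P113475 ranged from -0.35 on CA array 4 to 0.64 on CA array 2 (median 0.16), and from 0.11 on UDCA array 4 to 1.25 on UDCA array 2 (median 0.92). All UDCA arrays were above 0, and the groups overlapped. Pctp was called higher with UDCA (0.79 ± 0.15, 1.73-fold, adjusted p = 0.00123) and not with CA (0.12, adjusted p = 0.506). Wild type signal was well above background on 3 of 6 CA and 1 of 6 UDCA arrays, so the size of the UDCA rise is loosely set, and with processed signals it was 1.88. The diet difference of -0.67 (95% interval -1.13 to -0.22, adjusted p = 0.0304) was -0.75 within slide 3 but -0.11 within slide 4, and it lost its call without CA arrays 3 and 4 (-0.50, adjusted p = 0.133).

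**Figure D3:**
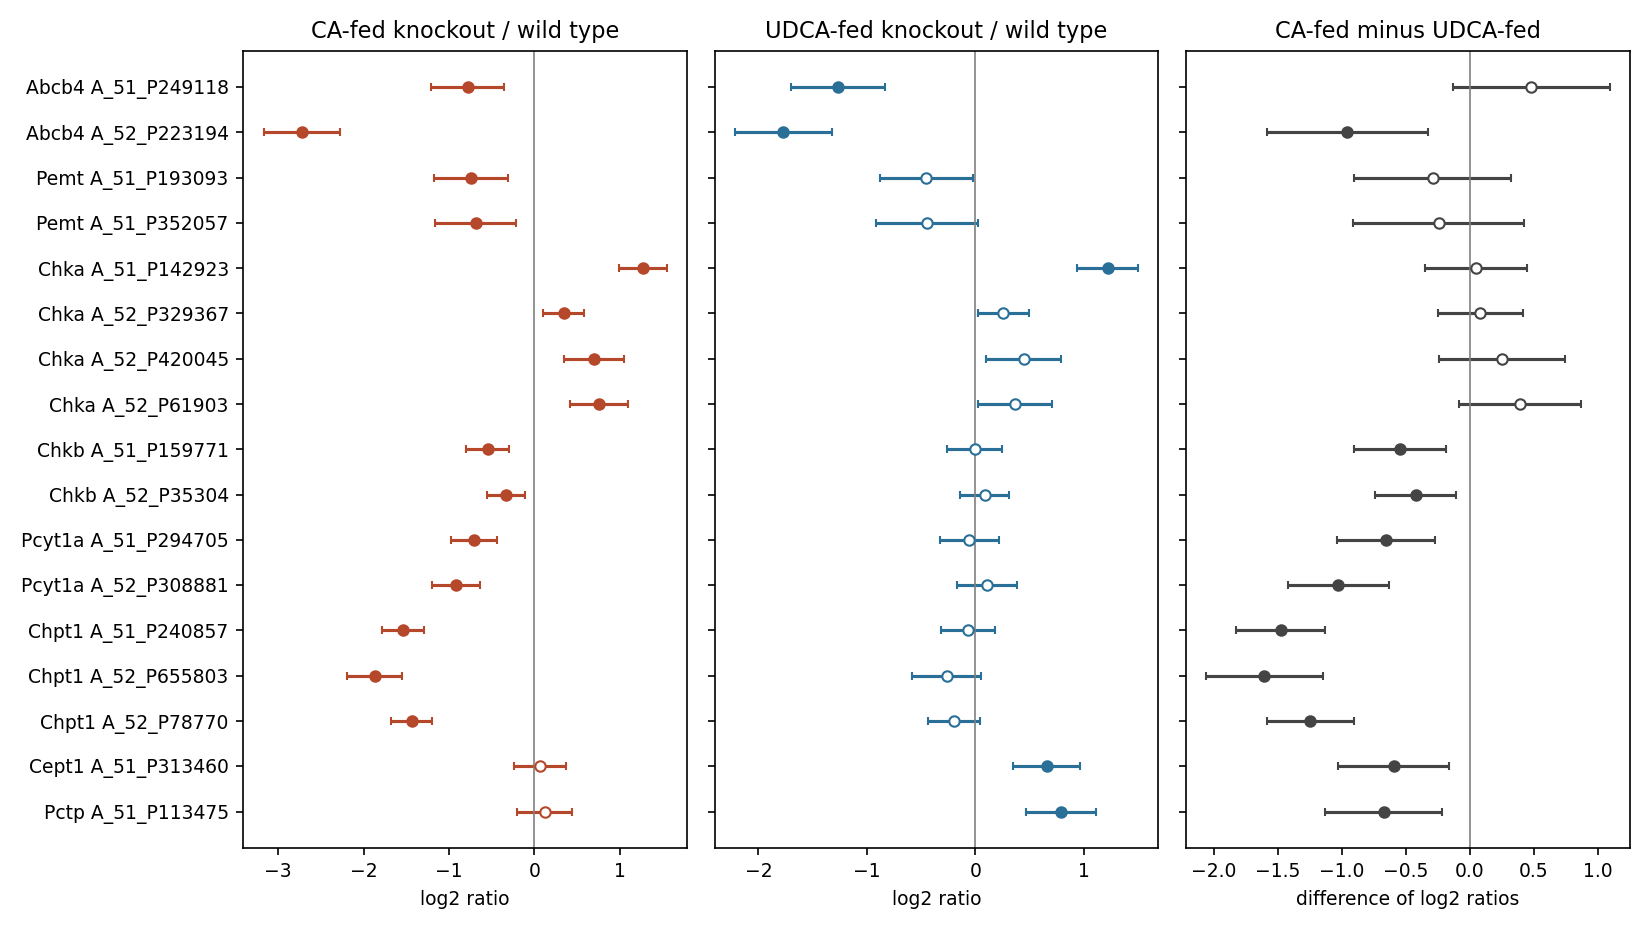
Estimate of knockout over wild type (log2) with its 95% interval for each of the 17 tested probes. Panels from left to right show CA-fed, UDCA-fed and CA-fed minus UDCA-fed, with filled points where a probe was called. The intervals of the 3 Chpt1 probes do not meet between the diets, and all 4 Chka probes lie right of 0 in both.

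The calls for the diet difference in the choline-route genes did not all hold to the same extent. Chpt1 and Pcyt1a were called at their brightest probe whichever single array was left out. Under median centring neither passed at that probe (Chpt1 -1.69, adjusted p = 0.105, and Pcyt1a -1.19, adjusted p = 0.324), and Pctp alone was called. Leaving out both arrays of the second slide left 3 called genes, Chpt1, Pcyt1a and Cept1, and the slide as a fixed block left Chpt1 and Pcyt1a. Cept1 and Pctp each lost the call when any of several single arrays was left out, CA array 1 and UDCA arrays 1, 5 and 6 for both of them.

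Genes next to this pathway were read from 9 lists. Without CA arrays 3 and 4, 6 of 14 methionine cycle genes called lower with CA became 2, 10 of 18 remodelling genes became 7, and the other lists lost at most 1 called gene in a direction with CA. Among the named probes called with loess, members and lists together, median centring kept the sign of all but Chkb, but 23 of 49 called probes with CA, 16 of 30 with UDCA and 30 of 35 between the diets no longer passed. Of all 14952 gene names, 38% were called higher and 22.5% lower with CA, 60.5% in all, and 17.6% higher and 8.70% lower with UDCA, 26.4% in all. Between the diets, 18.9% were called higher and 9.02% lower with CA than with UDCA, 27.9% in all. The list counts below are to be read against these shares. With CA, 4 of 7 genes of the phosphatidylethanolamine list, 6 of 10 of choline uptake and 10 of 14 of the methionine cycle lie near the share for all names, and 7 of 16 of diacylglycerol supply and 4 of 8 of the exporters lie below it. These counts depend on the choice of the brightest probe. Dgat2, Gpat4 and Ahcy were not called there with CA, though their other probes were called lower. Agpat1 and Cds2 also had called lower probes that were not the brightest. In the other direction, Mat2b and Mtrr were called at the brightest probe but each had a probe that was not called.

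The sister branch makes phosphatidylethanolamine, the substrate of Pemt, and phosphatidylserine. Of its 7 genes, 4 fell with CA and none rose, at a list median of -0.54, 1 fell with UDCA (median -0.12), and 2 were lower with CA than with UDCA. Etnk1, an ethanolamine kinase, gave -1.06 (adjusted p = 5.72e-05) with CA and -0.10 with UDCA. Selenoi, the ethanolaminephosphotransferase that is the counterpart of Chpt1, gave -0.69 (adjusted p = 3.70e-05) and 0.09, although its other probes gave -0.30 and -0.05 with CA. Ptdss1, which exchanges the head group of phosphatidylcholine for serine, gave -0.83 (adjusted p = 0.00138) with CA. Etnk2 was called with UDCA (-0.75, adjusted p = 0.0404), but its probe was saturated on 5 of 6 of those arrays and a second probe gave 0.13.

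Diacylglycerol and phosphatidate supply the lipid backbone. Among 16 measured genes, 2 rose and 5 fell with CA, 4 rose and 2 fell with UDCA, and between the diets 1 was higher and 5 were lower with CA. Lpin1, the phosphatidate phosphatase that yields diacylglycerol, fell under both diets, by 2.10 (adjusted p = 3.61e-09) with CA and by 1.35 (adjusted p = 1.65e-06) with UDCA, and all 4 of its probes did so. Gpam, the mitochondrial glycerol-3-phosphate acyltransferase, fell with CA (-1.50, adjusted p = 2.73e-05) and stood at -0.03 with UDCA. Agpat4, a lysophosphatidate acyltransferase, rose by 2.04 (adjusted p = 2.70e-09) with CA and by 0.67 (adjusted p = 0.000688) with UDCA. Mogat1, a monoacylglycerol acyltransferase, rose with UDCA (1.92, adjusted p = 1.84e-05) and stood at -0.31 with CA, and its 3 probes gave the same pattern. Lpin2 was lower with CA (-0.76, adjusted p = 2.97e-05) and with UDCA (-0.87, adjusted p = 3.56e-05). Its other probes gave -1.18 and -0.49 with CA, and -0.35 and 0.04 with UDCA.

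Phosphatidylcholine remodelling and breakdown genes divided. All 18 measured genes were called with CA, where 60.5% of all gene names were, 8 higher and 10 lower, and 4 were higher and 4 lower with UDCA. Among those that rose were the lysophospholipid acyltransferases Mboat1 (3.18, adjusted p = 3.34e-08, with CA and 1.43, adjusted p = 0.000414, with UDCA) and Lpcat2 (2.96, adjusted p = 3.48e-09, and 0.85, adjusted p = 0.00236). Pld1, a phospholipase D, rose by 2.15 (adjusted p = 1.27e-09) with CA and by 1.02 (adjusted p = 1.05e-05) with UDCA, where its second probe gave 0.34 (adjusted p = 0.107). Pla2g4a, the cytosolic phospholipase A2, was higher by 1.41 (adjusted p = 0.000163) in CA-fed than in UDCA-fed knockout ratios. Gpcpd1, a glycerophosphocholine phosphodiesterase, gave -1.24 (adjusted p = 8.42e-05) with CA and -1.06 (adjusted p = 0.00118) with UDCA. The cholangiocyte and stellate lists rose on the same arrays as these acyltransferases, and their part in these ratios was not tested.

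Choline enters the cell through carriers and is oxidised to betaine in mitochondria. Of 10 measured genes of uptake and oxidation, 3 rose and 3 fell with CA, and 2 rose and none fell with UDCA. Slc44a3, of the choline transporter-like family, rose by 1.11 (adjusted p = 2.14e-06) with CA and by 0.53 (adjusted p = 0.00514) with UDCA, and Slc44a2 was higher with CA than with UDCA by 0.76 (adjusted p = 0.00482). Chdh, choline dehydrogenase, rose with UDCA (0.71, adjusted p = 0.00209) and stood at -0.10 with CA. Aldh7a1, which oxidises betaine aldehyde, fell with CA (-0.86, adjusted p = 0.000321) and stood at -0.10 with UDCA, a difference of -0.76 (adjusted p = 0.0229) that did not pass without CA arrays 3 and 4 (-0.54).

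The methionine cycle supplies the methyl groups that Pemt spends. Of 14 genes, 4 rose and 6 fell with CA, and 2 rose and 1 fell with UDCA. Nnmt, which methylates nicotinamide, rose with CA (1.12, adjusted p = 0.00102) and stood at -0.52 (adjusted p = 0.145) with UDCA. Cth, the last enzyme of transsulfuration, fell with CA (-1.03, adjusted p = 1.67e-06) and stood at -0.07 with UDCA. Mat2a, the S-adenosylmethionine synthetase of extrahepatic tissues, was called higher with UDCA by 0.37 (adjusted p = 0.0166) and with CA by 0.57. Gamt, which spends methyl groups on creatine, was called lower with UDCA (-0.66, adjusted p = 0.00389) and with CA (-0.50). Its probe was saturated on all 6 UDCA arrays.

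Sphingomyelin takes its head group from phosphatidylcholine. Of 9 genes, 2 rose and 2 fell with CA and 2 rose with UDCA. Smpd3, a neutral sphingomyelinase, gave 1.87 with CA and 2.02 with UDCA, and Sptlc2, a subunit of serine palmitoyltransferase, gave 1.49 and 0.99. Samd8, a relative of the sphingomyelin synthases, fell with CA (-0.79, adjusted p = 0.000416). Among 11 phospholipid transfer and flipping genes, 3 rose and 3 fell with CA and 2 rose and 1 fell with UDCA. Plscr1, a scramblase family member, rose by 2.72 (adjusted p = 3.95e-09) with CA and by 1.86 (adjusted p = 9.73e-07) with UDCA. Plscr2 rose by 1.10 with CA and by 0.33 (adjusted p = 0.0248) with UDCA, where its second probe gave 0.17 (adjusted p = 0.297). Its UDCA call was lost with processed signals (0.24), the deposited values (0.25) and median centring. Pitpna, a phosphatidylinositol transfer protein, was higher with CA than with UDCA by 0.82 (adjusted p = 0.00314), where its second probe gave 0.34 (adjusted p = 0.109). Tmem30a, the flippase subunit, gave -0.64 (adjusted p = 0.00305) with CA and -0.43 (adjusted p = 0.0403) with UDCA. These came from values on 3 CA and 4 UDCA arrays.

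Abcb4 shares the canalicular membrane with other exporters. Of 8 listed exporter and P-glycoprotein genes, with Abca1 counted among them, 1 rose and 3 fell with CA, and 3 rose and 1 fell with UDCA. Abcc2, the canalicular exporter of conjugated organic anions, fell with CA (-0.62, adjusted p = 4.66e-05) and rose with UDCA (0.63, adjusted p = 0.000170), for a difference of -1.26 (adjusted p = 3.46e-05). All 6 CA arrays were below 0 and all 6 UDCA arrays above it. Abcg8, a subunit of the canalicular sterol exporter, fell by 1.36 (adjusted p = 1.86e-05) with CA and by 0.69 (adjusted p = 0.0148) with UDCA, and Abcg2 rose with UDCA (0.57, adjusted p = 0.00553). Abcb1a rose under both diets (0.57, adjusted p = 0.00679, and 0.54, adjusted p = 0.0249). Abcb1b, the other mouse multidrug P-glycoprotein, had probes that disagreed: -0.52 at the brightest and 1.10 and 2.48 at the others with CA, and the first was -0.25 (adjusted p = 0.248) without CA arrays 3 and 4.

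Of 3 measured nuclear receptors with Abcb4 among their known targets, 2 fell with CA and 1 with UDCA at their brightest probes. Rxra was not called at that probe (-0.38, adjusted p = 0.182, with CA and -0.36, adjusted p = 0.310, with UDCA). Its other probe was called lower under both diets (-1.10, adjusted p = 2.26e-06, and -0.49, adjusted p = 0.00953). Ppara, the fatty acid receptor whose agonists induce Abcb4 in mice, fell by 1.70 (adjusted p = 1.61e-08) with CA and by 1.07 (adjusted p = 9.38e-06) with UDCA. Nr1h4, the bile acid receptor FXR, fell with CA (-0.95, adjusted p = 1.49e-05, on 5 arrays) and stood at -0.01 with UDCA, a difference of -0.94 (adjusted p = 0.00119).

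**Figure D4:**
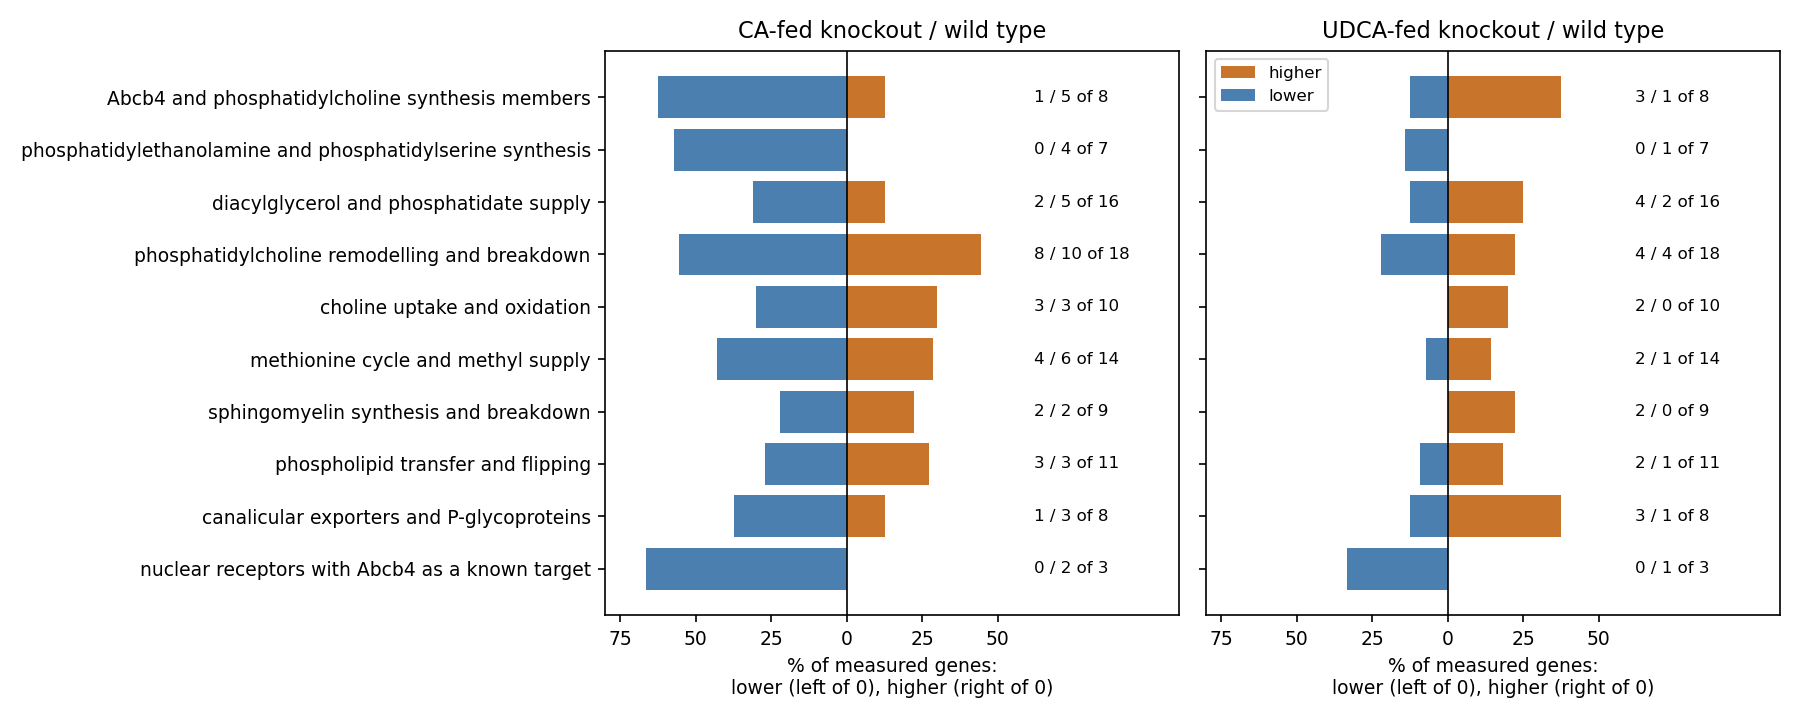
Percent of the measured genes of each list called lower (bars left of 0) and higher (bars right of 0) in knockout against wild type liver, CA-fed left of UDCA-fed, with the numbers of genes higher and lower beside each row. The phosphatidylethanolamine and phosphatidylserine list has 4 of 7 genes lower and none higher with CA, while the remodelling list has 8 higher and 10 lower.

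Over the 12 arrays, with the dye effect removed, the genes whose ratios ran most like those of Abcb4 at A_51_P249118 were Slc4a5 (Pearson r = 0.910), Pomk (r = 0.869) and Miip (r = 0.866), among 11924 genes with a median r of 0.0852. Those most like Pemt at A_51_P352057 were Galns (r = 0.937), Atp5d (r = 0.922) and Aldh9a1 (r = 0.917), against a median r of 0.0514. The arrays share slides and dyes, and these are the highest of many correlations, so they are a description of the 12 arrays. The Abcb4 probe used here was saturated on 4 CA and 3 UDCA arrays, so its pattern over arrays only loosely reads Abcb4. Slc4a5 itself gave 0.11 with CA and -0.02 with UDCA, Pomk 0.67 and 0.37, and Miip 0.23 and -0.15.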

How the data were processed

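RNA of 1 knockout and 1 wild type liver was hybridised per 4 x 44K mouse array. The spot intensity values and log10 ratios were made by the authors with Feature Extraction 9.5.3, per the file headers, with probe positions in mm7. The deposited series values are log2-like ratios, of which scale and centring are unstated, with CA columns running opposite to knockout over wild type and turned here; they served as an alternative. Mean signals were background-corrected (normexp, offset 50), loess-normalised within each array (limma 3.58.1, R 4.3.3) and turned to log2 knockout over wild type. Control spots and flagged spots were left out, which left 0.922% of values missing. Probes well above background on at least 5 of 6 arrays in knockout or wild type RNA of either diet were kept (21693, of which 21688 could be fitted). Diet groups and the dye were fitted with lmFit and eBayes on all 12 arrays, and p-values were adjusted by Benjamini-Hochberg over all tested probes. A gene's brightest tested probe stands for it. The fit was tested on simulated data. Precision is limited by the number of arrays.

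All members were named, with up to 3 called genes of largest size from each pathway list in each comparison, and the 3 genes most like Abcb4 and Pemt. Some genes that this rule names are not reported here. The members and lists were chosen with earlier results of these data known. The dye-swapped pair could not be told from the data (highest correlation 0.152 with CA and 0.0832 with UDCA), so it was not averaged. The alternatives covered normalisation, filter, dye, slide, saturation, and arrays left out. Leaving out CA arrays 3 and 4 together was chosen after seeing the data.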

Additional observations from a re-analysis of the deposited data

Results flagged for a closer look

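Arrays that stood apart within their group of 6, by the gap to the nearest array relative to the group's range, were found for 8 of the 110 groups examined over 55 probes, and chance gives about 1 in 20. They were CA array 3 for Pemt A_51_P193093 (-2.21), CA array 1 for Chkb A_52_P35304 (0.10) and for Chpt1 A_52_P78770 (-1.84), and UDCA array 6 for Etnk1 (-0.80) and Gpam (-0.71). The others were CA array 4 for Pld1 (1.57) and Samd8 (-1.81), and UDCA array 5 for Gpcpd1 (-2.53).

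The knockout over wild type ratio differed between the diets, by the fit's test of the difference, for these members, given as CA-fed minus UDCA-fed on the log2 scale. They were Abcb4 A_52_P223194 (-0.95), Chkb A_51_P159771 (-0.54) and A_52_P35304 (-0.42), Pcyt1a A_51_P294705 (-0.65) and A_52_P308881 (-1.03), Chpt1 A_51_P240857 (-1.48), A_52_P655803 (-1.60) and A_52_P78770 (-1.24), Cept1 (-0.59) and Pctp (-0.67). Among the named pathway genes, those lower with CA were Abcc2 (-1.26), Aldh7a1 (-0.76), Cth (-0.97), Etnk1 (-0.96), Gpam (-1.48), Lpin1 (-0.75), Nr1h4 (-0.94), Ppara (-0.63), Selenoi (-0.77), Abcg2 (-0.67), Chdh (-0.81), Mogat1 (-2.23) and Abcb1b (-0.70). Those higher with CA were Agpat4 (1.38), Lpcat2 (2.12), Mboat1 (1.75), Nnmt (1.64), Pitpna (0.82), Pld1 (1.13), Plscr1 (0.85), Plscr2 (0.77), Slc44a3 (0.57), Sptlc2 (0.50), Pla2g4a (1.41) and Slc44a2 (0.76).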

How the results depend on the processing

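Of the member genes called, the CA count of 6 was 5 to 6 and the UDCA count of 4 was 4 to 5 with any 1 array left out, and the count of 5 between the diets was 2 to 5. Median centring gave 2, 2 and 1; it called 6141 of the tested probes with CA (4939 higher and 1202 lower, against 7387 and 5543 with loess), 1976 with UDCA (1866 and 110, against 3294 and 1807) and 815 between the diets (689 and 126, against 3543 and 2316). The count between the diets was 3 with no filter on dim probes, with no dye term, with the replicate number as a block and with CA arrays 3 and 4 left out, and 2 with the slide as a fixed block. Chkb A_52_P35304 with CA turned to 0.00540 under median centring. The cause of these changes was not tested. Over single probes, 81 values lost and 22 gained a call under an alternative, with the same sign. Dim probes limit Pctp, Pcyt1b and most Chka values, and saturation limits Abcb4 A_51_P249118 and Pemt. Same-numbered arrays of the diets correlated at 0.321 to 0.470 for 5 of 6 numbers and at -0.276 for number 6, and 3 numbers correlated best with their own. The dye effect was not removed from these values, and same-numbered arrays held the knockout RNA in the same dye. The correlations therefore cannot show whether the arrays are paired, and the numbers were not taken as pairs. With the replicate number as a block, Chkb and Cept1 lost their call between the diets.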

Other observations

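The ratios can be read apart into the levels of each RNA, as normalised log2 signal averaged over a diet group's arrays, with no test and open to slide effects. For Chpt1 the knockout level was lower in CA-fed than in UDCA-fed liver by -1.29, -1.34 and -1.31 at its 3 probes, while the wild type level differed by 0.32, 0.14 and -0.07. For Pcyt1a A_52_P308881 the knockout level differed by -0.43 and the wild type level by 0.60, while at A_51_P294705 they differed by -0.50 and 0.16. For Pctp the knockout difference was -1.05 and the wild type difference -0.38. For Abcb4 A_52_P223194 the knockout levels differed by -0.32 and the wild type levels by 0.64. On CA array 2 the wild type Cy3 signal of that probe was 38210 units, where CA arrays 1 and 3, labelled the same way, gave 3941 and 5866.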
